A study of Homo sapiens with 5 samples.

Results

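The genes described here belong to the follistatin, activin, TGF-beta and BMP pathways. They are 10 genes chosen by symbol among the 25382 genes of the count table: the ligand genes INHBA, TGFB1, TGFB2 and BMP4, the antagonist genes FST, FSTL1 and FSTL3, and the response genes ID1, ID3 and SMAD7. All 10 were in the table, and all 10 reached the filter on low counts in each of the 5 libraries. RNA was sequenced from MDA-MB-231, a human breast cancer line that lacks oestrogen and progesterone receptors and has a mesenchymal form. Cells of this line, grown in DMEM with serum and antibiotics, were sorted by shear stress into a weakly adherent group (3 libraries, dated 6, 12 and 15 March) and a strongly adherent group (2 libraries, dated 6 and 15 March). Libraries are called strong or weak, for strongly or weakly adherent, with their date. The question was how these groups of 1 line differ in RNA. Nothing in the labels says that the libraries of a group came from separate cultures, so each p-value reflects only how far these libraries vary, and that spread may be technical. The same shear that sorted the cells acted on them before RNA was taken, and an earlier difference and a response to the shear cannot be told apart.

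Activins, TGF-betas and BMPs are secreted dimers that bind pairs of receptor kinases on the cell surface. The receptors phosphorylate SMAD proteins, which enter the nucleus and switch on genes such as the ID genes, read mainly by BMP signals, and SMAD7, which feeds back to stop the receptors. Follistatin and FSTL3 hold activins outside the cell and keep them from the receptors. FSTL1, which has a follistatin-like domain, is only listed with them here. In breast cancer cells these pathways are known for their part in invasion and in the shift between epithelial and mesenchymal form.

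Of the 10 genes, INHBA, TGFB2, FST and FSTL3 fell in weakly adherent cells and 0 rose, by the edgeR test set out below. Of all genes tested, 0.918% fell and 1.77% rose. The 250 bases before the RefSeq start of each of the 4 genes that fell are shown as their upstream sequence. These bases come from GRCh38.p14, a later build than the hg19 of the counts. They were read 5′ to 3′ along the gene's strand. Capitals mark matches on either strand to any of 6 motifs. These include CAGACA and the palindrome GTCTAGAC, which SMAD3 and SMAD4 bind, TGGCGCC of BMP response elements, CATTCC of TEAD factors, and TATAAA. The last is TGANTCA, a loose form of the AP-1 site in which N is any base.

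INHBA, chr7:41703091-41703340, minus strand: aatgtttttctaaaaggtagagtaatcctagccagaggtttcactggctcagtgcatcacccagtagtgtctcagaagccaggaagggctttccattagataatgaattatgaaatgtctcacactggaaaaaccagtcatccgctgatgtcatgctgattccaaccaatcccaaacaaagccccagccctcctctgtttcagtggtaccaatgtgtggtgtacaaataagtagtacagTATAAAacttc
TGFB2, chr1:218345086-218345335, plus strand: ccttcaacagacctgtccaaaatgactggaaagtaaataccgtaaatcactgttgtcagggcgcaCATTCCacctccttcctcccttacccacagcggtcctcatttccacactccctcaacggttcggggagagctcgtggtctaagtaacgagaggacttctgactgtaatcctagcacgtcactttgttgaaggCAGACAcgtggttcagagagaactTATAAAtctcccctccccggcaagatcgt
FST, chr5:53480379-53480628, plus strand: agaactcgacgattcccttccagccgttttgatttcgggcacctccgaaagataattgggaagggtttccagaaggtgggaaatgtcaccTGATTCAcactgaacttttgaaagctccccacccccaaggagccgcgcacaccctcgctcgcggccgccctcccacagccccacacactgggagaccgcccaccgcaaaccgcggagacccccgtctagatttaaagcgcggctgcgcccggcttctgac
FSTL3, chr19:676142-676391, plus strand: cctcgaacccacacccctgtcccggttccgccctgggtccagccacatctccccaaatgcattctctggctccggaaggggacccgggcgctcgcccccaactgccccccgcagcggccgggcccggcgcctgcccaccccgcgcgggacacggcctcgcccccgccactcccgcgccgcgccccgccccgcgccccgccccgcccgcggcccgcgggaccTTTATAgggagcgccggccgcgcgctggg

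The 4 upstream windows shared no single motif of this set. In TGFB2, CATTCC began 185 bases, CAGACA 53 bases and TATAAA 29 bases before the start. In FST the only match was TGATTCA, 160 bases before the start, which matches the loose AP-1 form with T as its free middle base. INHBA held TATAAA 11 bases before its start, and FSTL3 held it on the opposite strand 29 bases before. Among 35116 RefSeq windows of the same length, 13.6% held CAGACA, 11.9% CATTCC, 6.57% TGANTCA and 10.7% TATAAA. Of the 10 genes, 5 held TATAAA in at least 1 window. BMP4 and SMAD7 have more than 1 annotated start and so more than 1 window, so counts of genes and shares of windows are unlike measures. The motif TGGCGCC was in 4.64% of windows and in 1 of the 10 genes, FSTL1. The palindrome was in 0.182% of windows and in none of the 10 genes. These letters are only matches in 1 annotated window per start, and no binding was measured.

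Values below are normalised read counts in CPM, the count of a gene relative to the library's total, scaled between libraries by TMM. A difference is the log2 fold change of weakly minus strongly adherent cells, and a gene is said to have fallen or risen where edgeR's quasi-likelihood test gave a Benjamini-Hochberg adjusted p under 0.05 over the 13297 genes tested. By that rule 122 genes (0.918%) fell and 235 (1.77%) rose in the whole table. With the trend along coding length removed from each library, 138 fell and 127 rose. Among the 10 genes described here, 4 fell and 0 rose, and their median log2 fold change was -0.21, beside -0.00054 over all genes tested. All 3 weak libraries lay below both strong ones, without overlap, in 6 of the 10, against 14.5% of all genes tested. With the shared date as a block, 5 of the 10 fell, against 5.28% of all genes, and 0 rose, against 6.20%. In that fit the weak library of 12 March, which has no partner, carries no weight. That fit leaves 1 residual degree of freedom, so its adjusted p-values, here and below, rest mostly on variance pooled over genes. Without the strong library of 6 March 0 of the 10 passed the test, and 2 passed without the strong library of 15 March, without the weak library of 12 March or without that of 15 March. The genes were chosen with earlier results in view, so these counts are a description. In these bulk samples fewer cells that express a gene and less of its RNA per cell cannot be told apart.

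**Figure D1:**
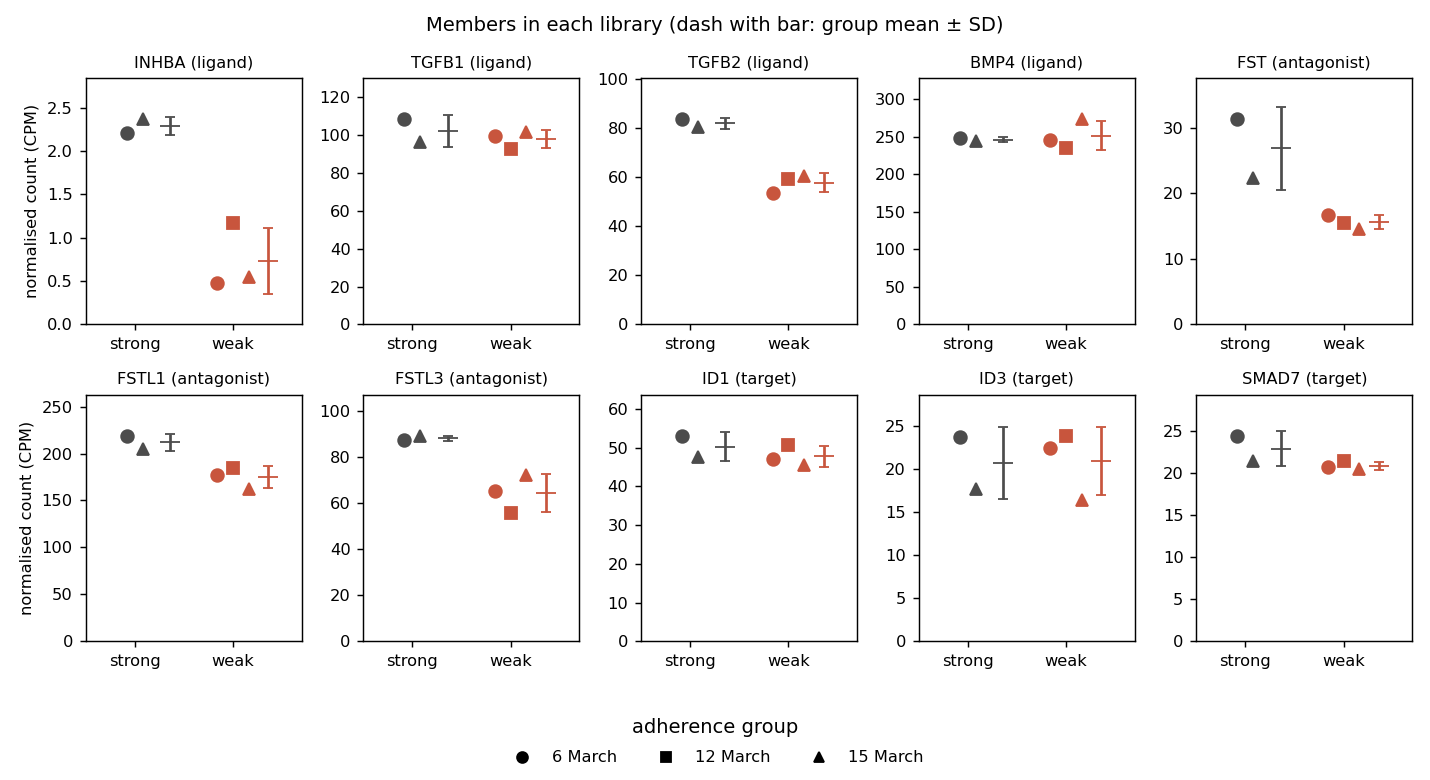
Normalised counts (CPM, linear axes from 0) of the 10 genes in each library, with strong libraries in grey, weak ones in red and the date as the symbol. Dashes with bars are group means ± SD (n = 2 and n = 3). INHBA, TGFB2, FST, FSTL1, FSTL3 and, only just, SMAD7 lie lower in all 3 weak libraries, while the libraries of TGFB1, BMP4, ID1 and ID3 overlap.

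Among the ligands, INHBA and TGFB2 fell. INHBA encodes the beta A subunit, which forms activin A as a homodimer and inhibin A with the alpha subunit. It was read at a very low level, with 47 and 52 reads in the strong libraries of 6 and 15 March and 10, 23 and 12 reads in the weak libraries of 6, 12 and 15 March. On the CPM scale these are 2.21 and 2.36 against 0.475, 1.17 and 0.546. Each weak library lay well below both strong ones, and the 12 March library was the highest of the 3. INHBA was 3.16-fold lower in weakly adherent cells (log2 fold change -1.66, with SE 0.33 and 95% interval -2.38 to -0.94, edgeR adjusted p = 0.020). By size of decrease it ranked 2 among the 122 genes that fell. Its call ended without the strong library of 6 March or of 15 March, which leaves 1 strong library. The log2 fold change of INHBA was then -1.705 and -1.604. The call also ended without the weak library of 15 March (log2 fold change -1.478, edgeR adjusted p = 0.0845). The antisense gene INHBA-AS1 had 0 reads in 4 libraries and 1 in the weak library of 12 March.

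TGFB2 encodes TGF-beta 2, which needs the co-receptor betaglycan to bind its signalling receptors well. Its normalised counts were 83.6 and 80.3 CPM in the strong libraries of 6 and 15 March and 53.5, 59.3 and 60.6 CPM in the weak libraries of 6, 12 and 15 March. The 2 groups were narrow and clearly apart. TGFB2 was 1.42-fold lower (log2 fold change -0.50, edgeR adjusted p = 0.0054, SE 0.08). Its call stood with 4 of 5 libraries left out in turn and ended without the strong library of 6 March. That leaves 1 strong library, and the log2 fold change was then -0.48.

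TGFB1 and BMP4 did not pass the test. TGFB1 encodes TGF-beta 1, the most widely expressed TGF-beta. Its levels were 108 and 96.2 CPM in strongly adherent cells and 99.3, 92.8 and 102 CPM in weakly adherent cells. These ranges overlap, and the log2 fold change of -0.06 had a 95% interval of -0.24 to 0.11 (edgeR adjusted p = 0.85). BMP4, a BMP ligand that signals through SMAD1 and SMAD5, was read at 249 and 244 CPM in strong libraries and at 246, 235 and 273 CPM in weak ones. The interval of its log2 fold change, 0.03, ran from -0.14 to 0.20 (edgeR adjusted p = 0.94). The sign of TGFB1 and that of BMP4 each turned when 1 library was left out, so no direction is given for either.

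Among the antagonists, FST and FSTL3 fell, and FSTL1 did not pass the test. FST encodes follistatin, which binds activins nearly irreversibly. Its normalised counts were 31.3 and 22.4 CPM in the strong libraries of 6 and 15 March, against 16.7, 15.5 and 14.6 CPM in the weak libraries of 6, 12 and 15 March. The weakly adherent values lay close together, whereas the strongly adherent ones differed from each other, that of 6 March being the higher. The group means were 26.9 ± 6.29 (SD, n = 2) and 15.6 ± 1.07 CPM (SD, n = 3), and the log2 fold change was -0.79 (SE 0.14, 95% interval -1.09 to -0.49, edgeR adjusted p = 0.011). Without the strong library of 6 March the log2 fold change was -0.53 and the call ended (adjusted p = 0.121). It also ended without the weak library of 12 March (0.0508) or of 15 March (0.0595), with a range of 3.64e-12 to 0.121 over 14 alternatives.

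FSTL3 encodes a follistatin-like glycoprotein that also binds activins and myostatin. It was read at 87.5 and 89.1 CPM in strongly adherent cells and at 65.5, 55.9 and 72.4 CPM in the weak libraries of 6, 12 and 15 March. Both strongly adherent values were above all 3 weakly adherent ones, of which that of 12 March was the lowest. FSTL3 was 1.37-fold lower (log2 fold change -0.45, edgeR adjusted p = 0.034, SE 0.10). The call ended without the strong library of 6 March or 15 March, which leaves 1 strong library. The log2 fold change of FSTL3 was then -0.46 and -0.43. The call also ended without the weak library of 12 March (log2 fold change -0.36, edgeR adjusted p = 0.0923).

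FSTL1 encodes a secreted protein of the SPARC family with a follistatin-like domain. Its levels were 218 and 205 CPM in strongly adherent cells and 177, 185 and 162 CPM in weakly adherent cells. The groups did not overlap, yet the log2 fold change of -0.28 (SE 0.08) missed the threshold (edgeR adjusted p = 0.088). With the shared date as a block it was -0.32 and passed (edgeR adjusted p = 3.7e-05), in a fit with 1 residual degree of freedom.

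**Figure D2:**
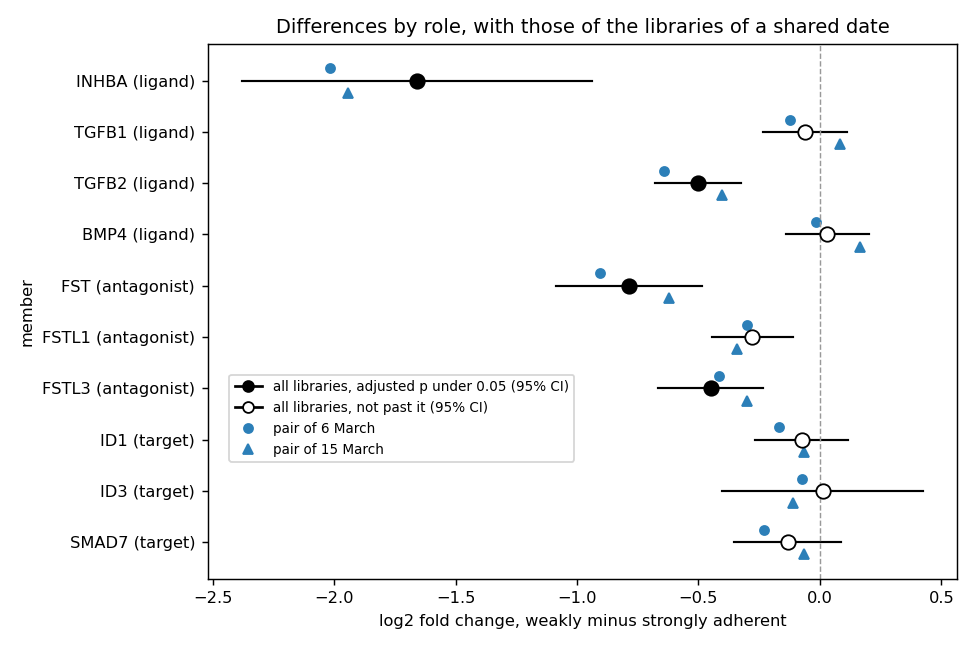
Log2 fold change of weakly minus strongly adherent cells for each gene by role. Black points with lines are edgeR estimates over all 5 libraries with 95% intervals, filled where the adjusted p is under 0.05. Blue points are the differences in log2 CPM between the libraries that share a date. The pairs of TGFB1 and of BMP4 fall on opposite sides of 0, and both pairs of each of the other 8 genes lie below 0. The share of all genes with both pairs below 0 was not worked out.

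Within the dates, the difference was below 0 in both pairs for 8 of the 10 genes, all but TGFB1 and BMP4. The share of all genes with both pairs below 0 was not worked out, so this count is only a description. In the fit over all 5 libraries, 50.2% of all genes tested had a log2 fold change below 0. INHBA differed by -2.02 in the pair of 6 March and -1.94 in the pair of 15 March, on the log2 CPM scale. TGFB2 differed by -0.64 and -0.40, FST by -0.90 and -0.62, FSTL3 by -0.42 and -0.30, and FSTL1 by -0.30 and -0.34. The 3 response genes also lay below 0 in both pairs, by smaller amounts: ID1 differed by -0.17 and -0.07, ID3 by -0.08 and -0.11, and SMAD7 by -0.23 and -0.07.

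Activin subunit and follistatin RNA were also set against each other within each library, since that ratio needs no scaling. For each read of INHBA there were 14.2 reads of FST in the strong library of 6 March and 9.48 in that of 15 March. The weak libraries of 6, 12 and 15 March had 35.1, 13.2 and 26.7. Library ranges overlapped, since the weak library of 12 March lay between the strong ones. On the log2 scale INHBA per FST had a mean of -4.53 ± 0.73 (SD, n = 3) over the weak libraries and of -3.53 ± 0.41 (SD, n = 2) over the strong ones, a difference of -0.996. A two-sided exact permutation test over libraries gave p = 0.3, but with 10 possible splits it allows no p below 0.1 and could not have passed 0.05. Within the dates the difference was -1.31 on 6 March and -1.49 on 15 March, with a mean of -1.40 that leaves out the weak library of 12 March. The reads per gene also depend on transcript length, so the ratio does not count molecules.

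None of the 3 response genes passed the test. ID1, an inhibitor of basic helix-loop-helix factors and a direct BMP target, was read at 52.9 and 47.6 CPM in strongly adherent cells and at 47.1, 50.6 and 45.5 CPM in weakly adherent cells. Its log2 fold change was -0.07 with a 95% interval of -0.27 to 0.12 (edgeR adjusted p = 0.82). The libraries of the groups overlapped, and the interval reaches from 0.831 to 1.08 as a ratio of weakly to strongly adherent cells.

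ID3, a relative of ID1 under the same kind of control, was lower in both libraries of 15 March than in the other 3. Its levels were 23.6 and 22.4 CPM in the strong and weak libraries of 6 March, 23.8 CPM in the weak library of 12 March, and 17.7 and 16.4 CPM in those of 15 March. The log2 fold change was 0.01 with a wide 95% interval of -0.40 to 0.43 (edgeR adjusted p = 0.99), and the part of the date in its levels was not tested. With the date as a block it was -0.09 (SE 0.10, edgeR adjusted p = 0.68).

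SMAD7, the inhibitory SMAD that TGF-beta induces, was read at 24.4 and 21.4 CPM in strongly adherent cells and at 20.8, 21.4 and 20.5 CPM in weakly adherent cells. The weak libraries lay just under the lower of the strong ones. The log2 fold change of -0.13 had a 95% interval of -0.35 to 0.09 (edgeR adjusted p = 0.66).

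Per length the genes stood at very different levels. CPM per kilobase of the longest GENCODE 29 transcript was highest for BMP4, at 128.5 ± 1.95 (SD, n = 2) in strongly and 131 ± 10.1 (SD, n = 3) in weakly adherent cells. ID1, TGFB1, FSTL1 and FSTL3 followed in strongly adherent cells at 40.8 ± 3.05, 36.9 ± 3.08, 35.7 ± 1.54 and 34.7 ± 0.45 CPM per kilobase, where each lay within the summed SD of its neighbour. ID3 (16.5 ± 3.36) and TGFB2 (16.2 ± 0.46) lay within their spread of each other, above FST at 10.6 ± 2.48 and SMAD7 at 5.17 ± 0.48 CPM per kilobase. INHBA was last at 0.377 ± 0.018 CPM per kilobase in strongly adherent cells and 0.121 ± 0.064 in weakly adherent cells. Which transcript the cells used is not known, and a shorter one would raise its gene's level.

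The rest of the pathway was read from lists of 122 further genes, of which 82 were tested. Of these 82, 4 fell and 2 rose, against 0.918% and 1.77% of all genes tested. The same shares apply to the counts of each list below. The median log2 fold change of the 82 was -0.01. With the date block 12 of the 82 fell and 8 rose, against 5.28% and 6.20% of all genes tested.

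Of 10 further ligands tested, 0 passed. The smallest p-values belonged to GDF15, a stress-induced relative of the TGF-betas (6.64 ± 1.93 CPM, SD, n = 2, in strongly and 9.68 ± 1.84 CPM, SD, n = 3, in weakly adherent cells, log2 fold change 0.54, edgeR adjusted p = 0.25), and to INHBB, the other activin beta subunit. INHBB was read at 5.69 ± 0.055 CPM (SD, n = 2) and 4.50 ± 0.58 CPM (SD, n = 3), with a log2 fold change of -0.34 (edgeR adjusted p = 0.41). GDF15 ranged from 0.28 without the strong library of 15 March to 0.87 without that of 6 March, and rose with date block and coding length trend together (0.43, edgeR adjusted p = 0.037).

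Of 8 other antagonists tested, 1 fell and 0 rose, and the list's median log2 fold change was -0.30. NOG, which encodes noggin, a protein that traps BMPs, had 49.7 and 54.0 CPM in strongly adherent cells and 31.9, 39.8 and 41.2 CPM in weakly adherent cells. The groups did not overlap, and NOG was 1.38-fold lower (log2 fold change -0.46, edgeR adjusted p = 0.047, SE 0.11), a call that ended whichever library was left out (adjusted p from 0.063 to 0.242). BMPER, a secreted BMP-binding protein, had a log2 fold change of -0.53 at adjusted p = 0.056, and -0.51 at adjusted p = 0.0037 with the date block, under which 4 of the 8 fell, against 5.28% of all genes.

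Of 9 genes of latency and activation tested, 1 fell. THBS1 encodes thrombospondin 1, which can release TGF-beta from its latent complex, and it fell from 3019 ± 257 CPM (SD, n = 2) in strongly to 2296 ± 150 CPM (SD, n = 3) in weakly adherent cells. That is a difference of -0.39 on the log2 scale (edgeR adjusted p = 0.035, SE 0.09), and the call ended whichever library was left out (adjusted p from 0.0501 to 0.40). LTBP1, which binds latent TGF-beta to the matrix, had a log2 fold change of 0.38 (edgeR adjusted p = 0.24) and rose with the date block (0.38, adjusted p = 8.1e-06). Its coding sequence has 5163 bases, and with the trend along coding length removed its log2 fold change was 0.24 (edgeR adjusted p = 0.41), or 0.24 with the block as well (edgeR adjusted p = 0.023).

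Among 10 receptors tested, BMPR2 alone passed. It encodes the type II receptor of BMPs and was read at 70.0 and 80.5 CPM in strongly adherent cells and at 100.2, 108.7 and 111.7 CPM in weakly adherent cells. All 3 weak libraries lay above both strong ones, a 1.42-fold rise (log2 fold change 0.50, edgeR adjusted p = 0.0074, SE 0.09; 0.108 without the strong library of 6 March). ACVR2B, a type II activin receptor, had a log2 fold change of 0.36 (edgeR adjusted p = 0.24). The receptors' median was 0.07.

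Of 20 SMADs and their regulators, 1 rose and 0 fell, with a median log2 fold change of -0.0052. The gene that rose was USP9X, a deubiquitinase that acts on SMAD4, from 273 ± 18.3 CPM (SD, n = 2) in strongly to 366 ± 5.33 CPM (SD, n = 3) in weakly adherent cells, a log2 fold change of 0.42 (edgeR adjusted p = 0.0081). Its coding sequence has 7710 bases, and with the trend along coding length removed its log2 fold change was 0.13 (edgeR adjusted p = 0.62). The call also ended without the strong library of 6 March (0.155). SMURF2, a ubiquitin ligase for SMADs and receptors, had a log2 fold change of -0.24 at adjusted p = 0.097 and -0.22 at 0.011 with the date block.

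Of 17 other TGF-beta targets tested, 2 fell and 0 rose, and the median log2 fold change over these 17 was 0.03. CTGF, a matricellular protein that YAP and TEAD also control, fell from 246 ± 14.1 CPM (SD, n = 2) in strongly to 160 ± 9.18 CPM (SD, n = 3) in weakly adherent cells, a difference of -0.62 on the log2 scale (edgeR adjusted p = 0.00082, SE 0.08). This call stood under all 14 alternatives. CDKN1A, which encodes the cell cycle inhibitor p21 and also answers to p53, was 1.28-fold lower (edgeR adjusted p = 0.047), and this call ended under 8 of 14 alternatives (adjusted p up to 0.515, without the strong library of 6 March). With the date block 5 of the 17 fell and 3 rose, against 5.28% and 6.20% of all genes.

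Of 8 other BMP targets tested, 0 passed and the median log2 fold change was 0.09. HES1, a repressor that Notch signals also induce, had a log2 fold change of 0.38 (edgeR adjusted p = 0.16) and rose with the date block (0.37, adjusted p = 0.011). ID2, the third ID gene here, was read at 0.927 ± 0.154 CPM (SD, n = 2) and 1.32 ± 0.30 CPM (SD, n = 3), with a log2 fold change of 0.51 (edgeR adjusted p = 0.53).

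**Figure D3:**
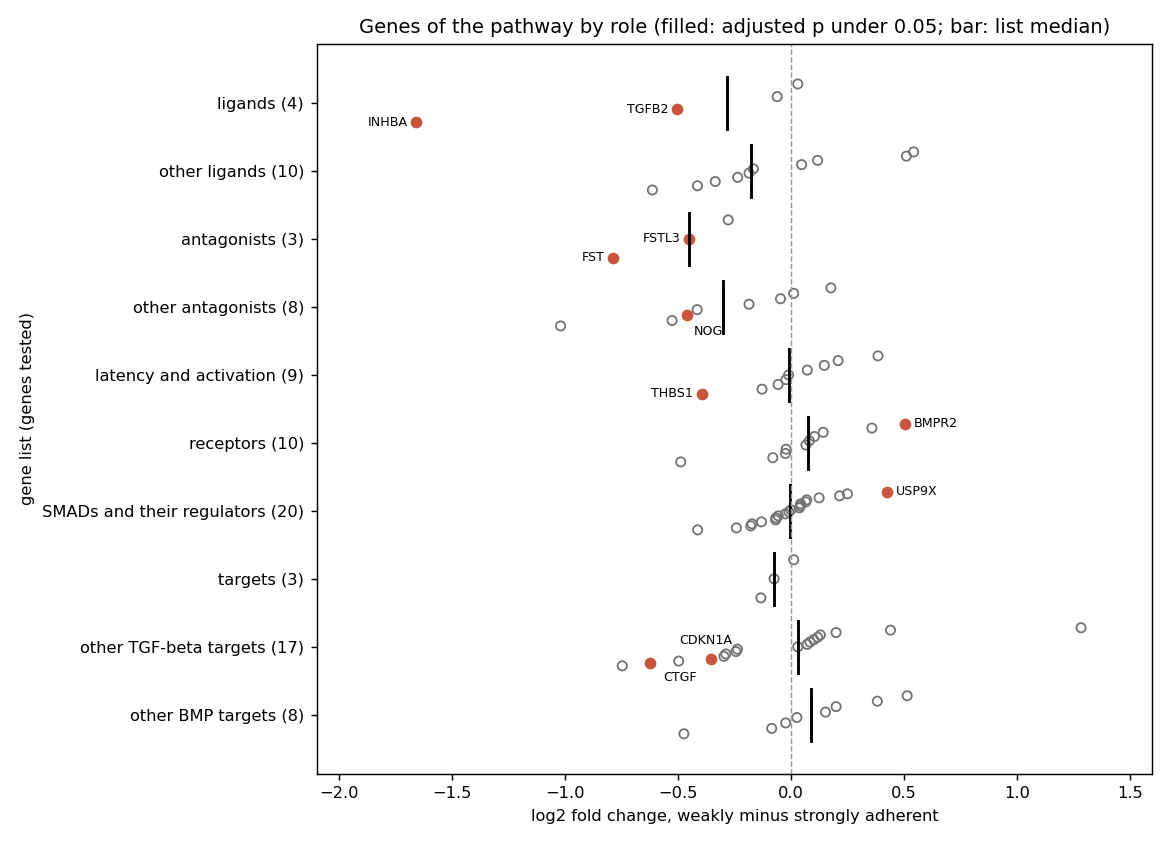
Log2 fold change of weakly minus strongly adherent cells for each tested gene of the pathway by list, with the number tested in brackets. Filled points are genes with an edgeR adjusted p under 0.05, which are named, and black bars are list medians. The antagonist lists have their medians at -0.45 and -0.30, and the ligand lists at -0.28 and -0.18. The medians of the receptors and of the SMAD regulators are 0.07 and -0.0052, with 1 rise each.

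Over the 5 libraries the pattern of FST was most closely followed by SERTAD4, LYPD6 and DUSP1. Likeness was the root mean square difference of centred log2 CPM, ranked over 11562 genes averaging 2 CPM or more, and it was 0.12, 0.13 and 0.14 for these 3. In strongly and weakly adherent cells SERTAD4 had means of 10.98 ± 1.38 and 7.13 ± 0.25 CPM, LYPD6 of 10.97 ± 1.06 and 6.71 ± 0.18 CPM, and DUSP1 of 22.8 ± 2.13 and 15.1 ± 0.56 CPM (SD, n = 2 and n = 3). These genes were chosen for likeness over the same libraries, so their difference between the groups follows from the choice and is given with no test. TGFB2 ranked 67, FSTL3 218 and FSTL1 259 in likeness to FST, at 0.22, 0.27 and 0.27, and INHBA was under the minimum of 2 CPM. SMAD7 ranked 1002, ID1 2007, TGFB1 2394, ID3 4803 and BMP4 6463.

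**Figure D4:**
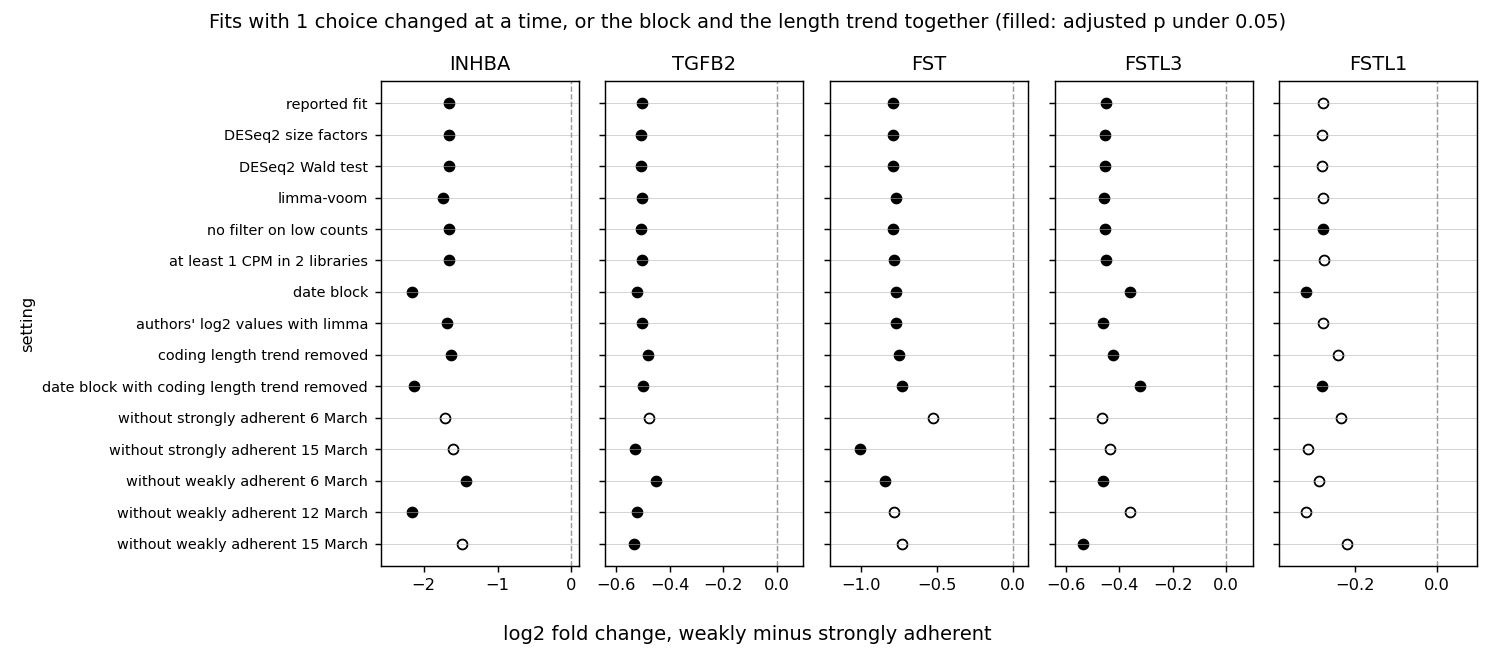
Log2 fold change of weakly minus strongly adherent cells for INHBA, TGFB2, FST, FSTL3 and FSTL1 under each setting, 1 choice changed at a time or the date block and the coding length trend together. Filled points have an adjusted p under 0.05. All points lie below 0, and the open points of INHBA, TGFB2, FST and FSTL3 are fits with 1 library left out.

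Reads counted in genes numbered 19630386 to 21707459 per library. Of 7 markers of the line's mesenchymal identity, 0 passed the test. Their summed level was 7802 to 7982 CPM in strongly and 7178 to 7460 CPM in weakly adherent cells, with SPARC alone under 1 CPM. ESR1 and PGR had no read, which allows up to 3 reads per library or 0.153 CPM in the shallowest, counting error only. The 9 luminal markers summed to 1477 to 1610 and 1329 to 1433 CPM, most of it keratin RNA, the 3 leukocyte markers to 123.7 to 144.9 and 115.5 to 130.3 CPM, nearly all CD68, and CD3E had no read. Fibroblast markers summed to 8.32 to 10.1 and 4.09 to 7.97 CPM with DCN at 0, and endothelial markers to 0.727 to 0.753 and 1.14 to 1.59 CPM. None of these markers passed the test. With the date block 2 markers fell, from lists of 7 identity, 9 luminal, 3 leukocyte, 3 endothelial and 4 fibroblast markers. Not all markers on these lists had enough reads to be tested. Of all genes tested, 5.28% fell in that fit. The 2 markers were the fibroblast collagen gene COL1A2 (-0.82, edgeR adjusted p = 1.6e-05) and CAV1 of the line's identity list (-0.22, edgeR adjusted p = 0.010). COL1A2 was read at 9.13 and 7.27 CPM in the strong libraries and at 3.85, 6.69 and 5.41 CPM in the weak ones. COL1A1, a collagen gene listed among the other TGF-beta targets, went the other way. It was read at 10.83 and 7.23 CPM in the strong libraries and at 12.97, 12.72 and 11.05 CPM in the weak ones. Its log2 fold change was 0.44 (edgeR adjusted p = 0.23), and 0.42 with the date block (edgeR adjusted p = 0.014). The part of these markers in the differences above was not tested.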

How the data were processed

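Total RNA of 5 MDA-MB-231 samples was sequenced as 50 bp single-end reads from TruSeq Stranded libraries, per the labels' protocols. DESeq2, HTSeq, STAR, FastQC, cutadapt and the build hg19 are listed, with no roles or versions, in the submitters' processing notes. The annotation and the strand setting were not stated there, and reads of overlapping or antisense genes may lie with either. The authors deposited raw counts per gene symbol and log2 values; the latter equal log2(count / size factor + 1), as tested on the file. The 5 HTSeq rows outside genes (26.2% to 27.4% of all rows' counts) stayed out.

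Groups follow the adhesion label. The deposited counts were fitted with edgeR 4.0.16 in R 4.3.3 (TMM, filterByExpr, robust quasi-likelihood F test, 3 residual degrees of freedom). Replicates of a group differed beyond counting noise in every pair (chi-square over degrees of freedom 7.54 to 12.6). Sample titles carry the date. The reported fit did not use it. Libraries of 1 date were treated as a pair only in the fits with the date block and in the differences within the dates. As a check, deviations from the group mean had r = 0.335 (6 March) and r = 0.204 (15 March) within pairs and -0.204 and -0.335 across them. The weak library of 12 March, which has no partner, had r = -0.156 with the strong library of 6 March and 0.156 with that of 15 March. With 2 strong libraries these values are mirror images.

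Members and lists were chosen with earlier results of these data known. Named are all 10 members, each further list's genes with an adjusted p under 0.05, topped up to 2 by the smallest p, antisense genes of members with a read, and the 3 genes most like FST. Alternatives were DESeq2's size factors and Wald test (1.42.0), limma-voom and limma on the authors' log2 values (3.58.1), 2 other filters, the date block, a coding length trend (GENCODE 29, matched by symbol, 88.5% of tested and 93.3% of called genes) as an offset, both together, and each library left out. The edgeR fit, its forms with the date block or the length trend, DESeq2 and limma-voom were run on simulated counts. Those counts held no date effect and no length trend, so they cannot show how the fits handle either. The other alternatives were not simulated. Motifs were searched in RefSeq promoters (GRCh38.p14), which held all 10 members. Of the lists, 1 TGF-beta target and 1 leukocyte marker are not reported here and are left out of the lists' counts, medians and sums. Figures used matplotlib 3.10.9.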

Additional observations from a re-analysis of the deposited data

Results flagged for a closer look

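TGFB1 and BMP4 moved in opposite directions in the libraries of the 2 shared dates. TGFB1 was lower in weakly adherent cells by 0.12 on the log2 CPM scale on 6 March (a difference of -0.12) and higher by 0.08 on 15 March, so that the pairs differed by -0.21. BMP4 differed by -0.02 and 0.16, so that its pairs differed by -0.18. Each date has 1 library per group, and the difference between the dates was not tested.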

How the results depend on the processing

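INHBA, TGFB2, FST, FSTL1 and FSTL3 were lower in weakly adherent cells under all 14 alternatives, and SMAD7 had a negative log2 fold change in all 14. Genes called in the whole table numbered 235 higher and 122 lower as reported, 825 and 702 with the date as a replicate block, 127 higher with the coding length trend removed, 599 and 695 with both, and 203 lower with no filter on low counts. With 1 library left out they ranged from 82 to 238 higher and 34 to 103 lower, and members called lower from 0 to 4; where 1 strong library remains, it is assumed to vary like the weak ones. All 357 genes called as reported were also called with the block. FSTL1 passed with the block (-0.32), with block and trend (-0.28) and with no filter (-0.28, adjusted p = 0.032). TGFB1 turned to 0.012 with block and trend, and ranged from -0.14 to 0.025 with 1 library left out. ID3 turned to -0.092 with the block, -0.0030 with the trend and -0.092 with both, and ranged from -0.18 to 0.23; BMP4 ranged from -0.028 to 0.074 and ID1 from -0.14 to 0.0021. The causes were not tested. The log2 INHBA to FST ratio differed by -0.996 as reported and kept its sign in 7 of 7 alternatives. DESeq2's size factors moved the median of all genes by -0.0026. Depth limits INHBA most, at 10 to 52 reads per library.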

Other observations

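The genes below were chosen from the lists for mention after their values were seen. SNAI1, an EMT factor that TGF-beta induces, was read at 0.894 and 0.727 CPM in strongly adherent cells. In weakly adherent cells it was at 1.24, 2.30 and 2.41 CPM, so that the groups did not overlap (log2 fold change 1.28, edgeR adjusted p = 0.078, and 0.0057 with the date block). SNAI2, its relative on the same list, went the other way, also without overlap. It was read at 41.33 and 47.14 CPM in strongly adherent cells. The weak libraries of 6, 12 and 15 March had 39.62, 32.33 and 40.55 CPM of SNAI2 (log2 fold change -0.24, edgeR adjusted p = 0.35). IL11, a cytokine that TGF-beta induces, was read at 53.3 and 55.6 CPM in strongly adherent cells and at 31.6, 51.0 and 33.3 CPM in the weak libraries of 6, 12 and 15 March, and the 12 March library was the highest of its group, as it was for INHBA. The log2 fold change of IL11 was -0.50 (edgeR adjusted p = 0.31). With the date block it was -0.75 (edgeR adjusted p = 4.5e-18). That fit gives the 12 March library no weight and leaves 1 residual degree of freedom. TGFBR1, the type I TGF-beta receptor, was at 85.3 and 86.3 CPM in the strong and weak libraries of 6 March and at 122.0 to 133.2 CPM in the other 3, so that both libraries of 6 March were the lower ones.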
